A study of Rattus norvegicus with 6 samples.

Results

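The kinesin motor genes were followed in polyadenylated RNA of rat vascular smooth muscle cells (VSMCs), which contract and relax the vessel wall, over 6 sequencing libraries. The members were all rows of the deposited count table whose symbol is Kif followed by a number, 39 of 18631 genes, plus Kifc1, a spindle kinesin named in the selection rule without a number in its symbol, which gives 40. Of these, 12 are kinesins of mitosis listed in the selection rule (Kif2c, Kif4a, Kif11, Kif14, Kif15, Kif18a, Kif18b, Kif20a, Kif20b, Kif22, Kif23 and Kifc1), and the other 28 are called the other kinesins. After removal of genes with low counts, 36 of the 40 could be tested, all 12 mitotic kinesins and 24 of the other 28, within 13423 tested genes in all. The 4 that were too low to test were Kif12, Kif2b, Kif28p and Kif4b, with counts of 0 to 13 in any library. Kif4b is annotated in RefSeq as a pseudogene, and reads of Kif4a could in principle be counted to it.

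The 3 libraries of the first group are titled KD_M and labelled as a MIAT knockdown, and the 3 of the second are titled Scr and labelled WT, called Scr control here. MIAT is a long noncoding RNA, which the series title links to the helicase DHX9, nucleolar homeostasis and mitotic progression. Per the labels' protocols, siRNAs and antisense oligonucleotides (ASOs) at 50 nM in all were applied for 72 h. This protocol text stands on all 6 libraries, and it does not say what the control cells received, nor which vessel, strain or age of rat the cells came from. The Miat transcript was not analysed here, and group names are those of the labels, unchecked against the target.

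Kinesins are motor proteins that use ATP to walk along microtubules, or in some families to take microtubules apart. The mitotic kinesins build the spindle, move and align chromosomes and complete cytokinesis, and their transcripts are made mainly by dividing cells in late cell cycle phases. Transport kinesins carry vesicles, mitochondria, RNA and ciliary components toward microtubule plus ends, opposite to cytoplasmic dynein, and are made in dividing and resting cells alike. Smooth muscle cells can leave the contractile state and divide, and then make both kinds.

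Total counts ranged from 17793811 to 20121161 per library. The smooth muscle markers Acta2, Tagln, Myh11, Cnn1, Smtn, Lmod1, Myocd and Synpo2 summed to 4307 to 6175 FPKM in knockdown and 4641 to 5777 FPKM in control libraries (FPKM is the deposited count per kilobase of gene and per 1e+06 counts). With same-numbered libraries paired, as in the results that follow, 2 of these 8 fell and 0 rose. Of all tested genes, 11.1% fell and 10.5% rose. The median log2 fold change of the 8 markers was -0.26. Endothelial markers summed to at most 2.03 FPKM over 7 genes. Macrophage and leukocyte markers summed to 12.5 to 15.8 FPKM in knockdown and 12.7 to 20.3 FPKM in control libraries over 7 genes, most of it from Cd14 and Cd68, with the defining gene Ptprc listed at 0 in every control library. The fibroblast list, which smooth muscle cells in culture also express, summed to 2553 to 6004 FPKM. Control library 3 was the highest of the 6 in that sum.

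Promoters of a few members are shown first, as the stretch from 120 bases before to 30 bases after the annotated start. They come from the RefSeq promoter table on the GRCr8 assembly. The capitals mark TTTGAA, the letters of the cell cycle genes homology region bound by the DREAM and MuvB complexes, and CCAAT, the letters of the NF-Y box, on either strand, so that they also appear as TTCAAA and ATTGG. Kif4a (chrX:69761763-69761912, plus strand), Kif22 (chr1:191080849-191080998, minus strand), Kif23 (chr8:71320555-71320704, minus strand) and Kifc1 (chr20:5000809-5000958, plus strand) are mitotic kinesins whose windows hold both motifs. Kif2c (chr5:135899183-135899332, minus strand) is a mitotic kinesin whose window holds neither, and Kif26b (chr13:92815307-92815456, plus strand) is a member outside the mitotic set whose window holds both.
Kif4a: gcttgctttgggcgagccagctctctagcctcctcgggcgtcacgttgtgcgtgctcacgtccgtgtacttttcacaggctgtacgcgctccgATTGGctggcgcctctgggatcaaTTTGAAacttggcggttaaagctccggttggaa
Kif22: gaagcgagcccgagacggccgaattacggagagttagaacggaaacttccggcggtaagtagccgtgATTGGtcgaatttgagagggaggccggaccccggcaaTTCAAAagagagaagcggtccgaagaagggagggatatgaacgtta
Kif23: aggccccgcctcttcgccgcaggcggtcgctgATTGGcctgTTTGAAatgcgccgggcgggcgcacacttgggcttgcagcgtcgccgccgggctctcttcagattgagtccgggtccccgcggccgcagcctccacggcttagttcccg
Kifc1: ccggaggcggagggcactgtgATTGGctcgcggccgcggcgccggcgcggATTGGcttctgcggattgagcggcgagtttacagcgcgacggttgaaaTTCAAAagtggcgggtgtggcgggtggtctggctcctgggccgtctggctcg
Kif2c: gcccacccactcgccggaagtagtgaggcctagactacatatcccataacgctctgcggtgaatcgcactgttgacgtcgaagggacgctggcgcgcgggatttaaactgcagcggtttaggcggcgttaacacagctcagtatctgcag
Kif26b: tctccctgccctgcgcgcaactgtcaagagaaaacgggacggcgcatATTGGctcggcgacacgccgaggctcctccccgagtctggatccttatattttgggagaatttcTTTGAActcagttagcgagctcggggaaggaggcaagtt
Among the 31 members with a window of 300 bases (250 before and 50 after the start), TTTGAA was found in 6 of 11 mitotic kinesins, 54.5%, and in 2 of 20 other kinesins, 10%, against 18.3% of all 33469 windows. CCAAT was found in 7 of 11 (63.6%) and 6 of 20 (30%), against 37.5% of all windows. Both stood together in 5 of 11 mitotic kinesins and in 1 of 20 others, Kif26b, against 7.41% of all windows. The E2F-type letters TTCCCGC were found in Kif18b, Kif23 and Kif6. These were 18.2% of the mitotic and 5% of the other windows, against 4.21% of all. The members were counted with 1 window per gene, but the 33469 windows were not limited to that or to genes in the count table. Among 13494 windows of genes in the count table, 1 per gene, TTTGAA was in 13.2% and CCAAT in 37.5%. Both stood together in 5.38% of these, and TTCCCGC was in 7.22%. Of 25 spindle and midzone partner genes with a window, 20 held TTTGAA, and of 18 dynein and dynactin genes 1 did. Matches of different motifs did not overlap in the members. These matches describe letters in a window and are not evidence of binding.

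The mitotic kinesins were higher in the libraries labelled MIAT knockdown, and several kinesins that carry cargo were lower. With the replicate number of the titles as a block, 10 of the 12 mitotic kinesins rose and 0 fell in edgeR's quasi-likelihood test (Benjamini-Hochberg adjusted p under 0.05 over all 13423 genes), where 10.5% of all tested genes were called higher and 11.1% lower. Of the 24 other kinesins tested, 1 rose, 7 fell and 16 did not pass, and the groups did not overlap in 10 of the 24, all lower in the knockdown, beside 11.8% of all tested genes in that direction. The median log2 fold change was 0.44 for the mitotic kinesins and -0.16 for the others, beside -0.0090 for all tested genes. The sets differ in gene length, with medians of 3685 bases for the mitotic kinesins, 6126 for the others and 3159 for all tested genes. After a correction for gene length, with the block, the median log2 fold changes were 0.46, -0.077 and -0.024 in that order. The part of gene length in the difference was not tested. Without the block 0 members passed, as did 0% of all genes, although 11 of the 12 mitotic kinesins and 6 of the 24 others had an unadjusted p under 0.05, as had 2576 of all 13423 genes. Scaling by total counts in place of TMM moved the median of all genes to 0.0984 and the calls with the block from 1412 higher and 1486 lower genes to 2822 higher and 819 lower, with 12 mitotic kinesins higher and 6 other kinesins lower. DESeq2 without the block called 3 mitotic kinesins higher (Kif4a, Kif15 and Kif22), beside 2.85% of all genes, and 2 others lower (Kif13b and Kif26b), beside 2.57%, or 5.42% in either direction. With the block it called 10 mitotic kinesins higher, beside 5.02%, and 4 others lower, beside 7.06%. Rose and fell refer to the fit with the block throughout. Nothing in the labels says that libraries of a group came from separate cultures or animals. The p-values without the block measure the spread between libraries of a group. Those with the block measure the spread of the differences between same-numbered libraries, and either spread may be technical.

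**Figure D1:**
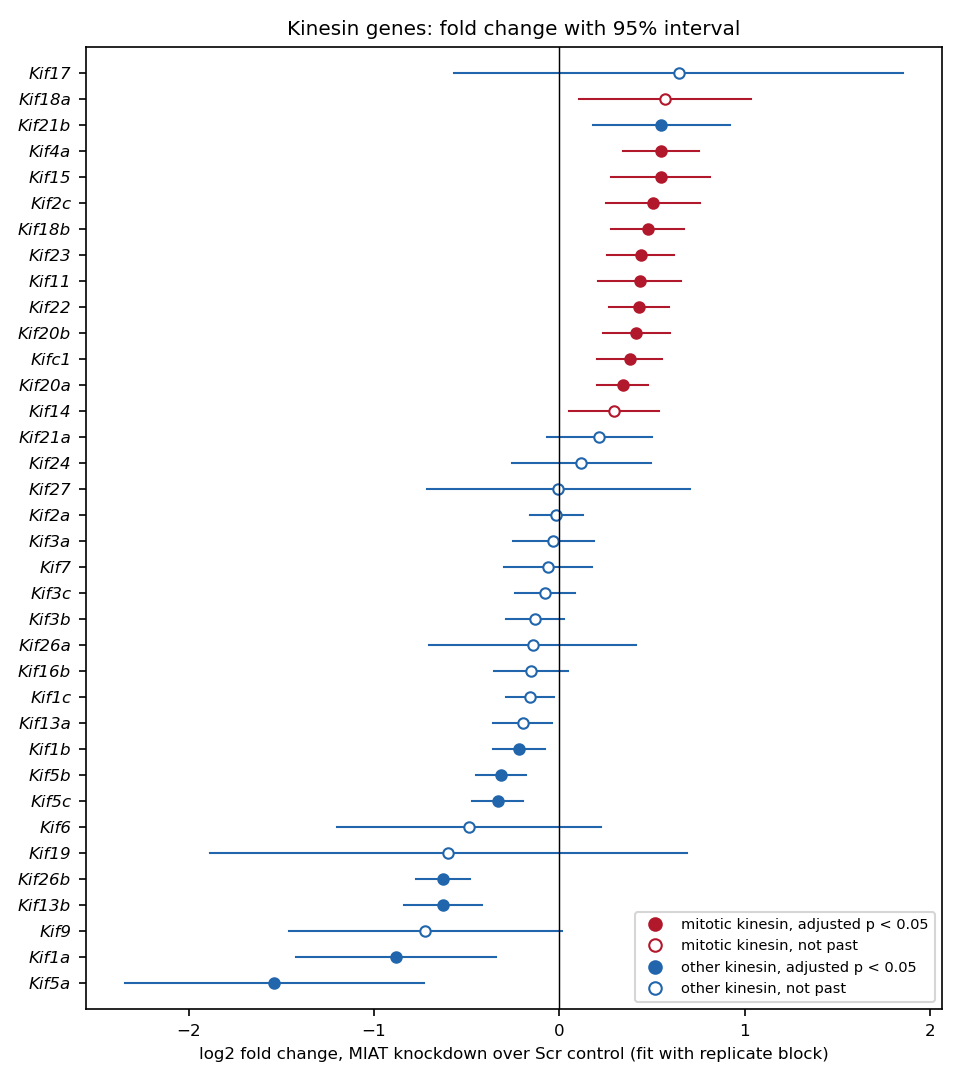
Log2 fold change of the 36 tested kinesin genes, MIAT knockdown over Scr control, from the edgeR fit with the replicate block. Points are estimates, lines are 95% intervals, and filled points passed an adjusted p of 0.05. All 12 mitotic kinesins (red) lie above 0, between 0.30 and 0.57, and the filled points among the other kinesins (blue) lie below 0 except Kif21b.

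In bulk RNA, a change in the number of cells of a kind and a change in RNA per cell cannot be told apart. Beside the mitotic kinesins, 9 of 13 proliferation genes rose and 0 fell, where 10.5% of all tested genes rose and 11.1% fell, with a median log2 fold change of 0.38. The calls of Mki67 and Top2a ended without pair 1 and without pair 2. That of E2f1 ended without pair 2 and without pair 3, and those of Mcm2 and Cdc20 without pair 1. In DESeq2 with the block the calls of E2f1, Mcm2 and Top2a ended. Those of Ccna2, Mybl2, Ccnb1 and Ccnb2 held in every fit with the block. Of the smooth muscle markers, Myh11, a myosin of the contractile apparatus, fell by 0.51 on the log2 scale, a call that ended in DESeq2 with the block (-0.52). Lmod1, an actin nucleator of muscle, fell by 0.30, a call that ended without pair 1 (-0.36), without pair 2 (-0.39) and under total count scaling (-0.20). The part of either list in the kinesin result was not tested. Each of the 12 mitotic kinesins was higher in all 3 same-numbered pairs, which 28% of all tested genes were, and in 10 of the 12 the groups did not overlap, beside 14.2% of all tested genes in that direction. Cenpe, a mitotic kinesin of the kinetochore whose symbol is outside the selection rule, was at 44.00, 57.2 and 49.2 CPM in the controls and 65.7, 66.9 and 48.6 CPM in the knockdown. Its groups overlapped, its pair 3 differed by -0.015 on the log2 scale, and it did not pass (log2 fold change 0.26, adjusted p = 0.101).

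The spindle motors come first. Kif11, the plus-end motor that pushes the spindle poles apart, stood at 26.99, 32.7 and 33.6 CPM (counts per 1e+06 after TMM scaling) in control libraries 1 to 3 and at 44.4, 42.6 and 38.8 CPM in knockdown libraries 1 to 3. All 3 knockdown libraries were above all controls, and the rise was 1.35-fold (log2 fold change 0.43, standard error 0.0990, adjusted p = 0.0179). Kif15, a partner motor that helps to keep the spindle bipolar, was nearly the same in every control at 11.9, 12.01 and 11.9 CPM and reached 21.03, 16.3 and 15.4 CPM in the knockdown. Knockdown library 1 was the highest, and the log2 fold change was 0.55 (adjusted p = 0.0145). Kifc1, a minus-end motor that gathers microtubules at the poles, was at 26.02, 31.5 and 25.4 CPM in the controls and 36.1, 37.5 and 33.8 CPM in the knockdown, again with no overlap and a log2 fold change of 0.38 (adjusted p = 0.0120). The calls of these motors ended without pair 1, at 0.30 for Kif11, 0.41 for Kif15 and 0.34 for Kifc1, and without pair 2, at 0.46, 0.60 and 0.44.

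Among the mitotic kinesins, the chromosome motors Kif4a and Kif22 were the members whose calls held in every fit with the block. Kif4a, a chromokinesin that works in chromosome condensation and in the length of the central spindle, was at 17.7, 22.2 and 19.6 CPM in the controls against 29.6, 30.1 and 27.4 CPM in the knockdown. Its lowest knockdown library lay above its highest control, and it rose 1.46-fold (log2 fold change 0.55, standard error 0.0903, adjusted p = 0.00569). Kif22, the chromokinesin Kid, which pushes chromosome arms outward, went from 37.4, 43.2 and 35.7 CPM to 54.3, 53.3 and 48.6 CPM, a log2 fold change of 0.43 (adjusted p = 0.00603). Both calls held in each of the 8 other fits with the block, among them those without pair 1, 2 or 3. In the RefSeq annotation the span of Kif4a overlaps that of Pdzd11, which averaged 45.1 ± 4.31 CPM with knockdown and 41.98 ± 4.41 CPM without (SD, n = 3) and did not pass (adjusted p = 0.290). In all, 10 members overlap another counted gene, among them Kif11 with Ide, which fell (log2 fold change -0.33), Kif2a with Dimt1 and Kif7 with Ticrr, which rose (0.43 and 0.59), and since the strand setting of the counting is not given, reads of such neighbours cannot be told apart.

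Among the regulators of microtubule plus ends, Kif2c, the depolymerase MCAK, which frees wrongly attached microtubules at centromeres, was at 20.4, 27.3 and 19.7 CPM in the controls and 33.6, 30.8 and 30.5 CPM in the knockdown. Control library 2 came close to the knockdown level, so that pair 2 differed by a log2 ratio of only 0.17, against 0.72 and 0.63 in pairs 1 and 3. Kif18b, which shortens the astral microtubules, rose from 17.9 ± 3.37 to 24.8 ± 3.22 CPM (SD, n = 3), with pair ratios of 0.50, 0.37 and 0.56. Kif18a, which dampens chromosome movement at the metaphase plate, was the least abundant of the 12 in CPM, at 5.16, 6.90 and 6.85 CPM in the controls and 12.03, 8.75 and 7.63 CPM in the knockdown. Its groups did not overlap, but pair 1 differed by a log2 ratio of 1.22 and pair 3 by 0.16, and it did not pass (log2 fold change 0.57, standard error 0.205, adjusted p = 0.0799). Kif18a passed without pair 3 (0.78) and, over all libraries, with total count scaling or no low-count filter. The Kif2c call ended without pair 1 (0.40), and that of Kif18b without pair 2 (0.53).

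Of the cytokinesis kinesins, Kif20a was the most abundant mitotic member per length, at 24.6 ± 1.90 FPKM in control libraries, followed by the chromosome motor Kif22 at 18.02 ± 2.12 FPKM and by Kif23 at 13.6 ± 1.57 FPKM, while Kif14, at 1.86 ± 0.271 FPKM, was among the lowest of the 12. Kif20a, or MKLP2, brings the chromosomal passenger complex to the central spindle, and its level was 69.4, 80.6 and 73.5 CPM in the controls and 93.7, 102 and 87.6 CPM in the knockdown, with no overlap and a log2 fold change of 0.34 (adjusted p = 0.00739). Kif23, or MKLP1, the motor of the centralspindlin complex, was at 48.02, 52.5 and 43.5 CPM and 75.1, 68.9 and 52.7 CPM, so that knockdown library 3 nearly met control library 2. Kif20b, or MPP1, rose from 24.7 ± 3.50 to 32.9 ± 4.84 CPM (SD, n = 3), and its groups overlapped because knockdown library 3, at 27.4 CPM, lay below control library 2, at 28.3 CPM. Kif14, which recruits citron kinase to the midbody, was at 13.04, 15.9 and 12.5 CPM in the controls and 18.3, 18.8 and 13.9 CPM in the knockdown, higher in every pair but with overlap between the groups, and did not pass (log2 fold change 0.30, 95% interval 0.05 to 0.54, adjusted p = 0.0806). Kif14 passed without pair 3 (0.36), under total count scaling (0.40) and after a correction for gene length (0.38). Without pair 2 the calls of Kif20a (0.34), Kif20b (0.45) and Kif23 (0.46) ended, and that of Kif20b also without pair 1 (0.36).

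**Figure D2:**
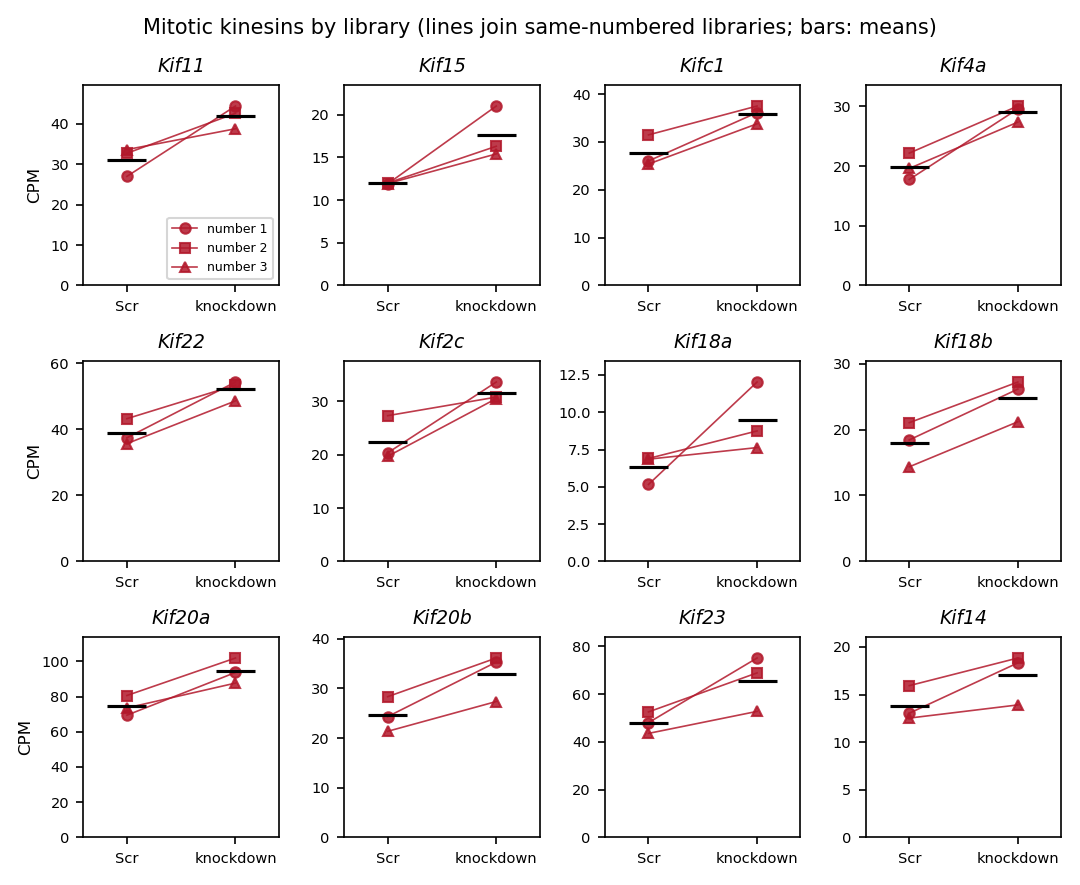
Level of each of the 12 mitotic kinesins in CPM after TMM scaling (vertical axes from 0), by library. Lines join same-numbered libraries, and black bars are group means over 3 libraries. Every line rises, and Kif14 and Kif20b are the panels in which the groups overlap.

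Across the mitotic set 1 place in each group was mostly held by the same library. Control library 2 was the highest control in 11 of the 12 genes, knockdown library 3 was the lowest knockdown library in all 12, and pair 1 had the largest difference in 11 of 12. The highest knockdown library was number 1 in 6 genes and number 2 in 6, and the lowest control was number 1 in 5 and number 3 in 7. The median log2 ratio over the 12 was 0.59 in pair 1, 0.35 in pair 2 and 0.36 in pair 3, with an SD of 0.14. Fold changes of the 12 ranged from 1.23 to 1.48 with standard errors of 0.0603 to 0.205 on the log2 scale, so most neighbours in that order differ by less than their errors.

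Kinesin-1 is the main motor for moving cargo toward the cell edge. All 3 of its heavy chain genes fell, where 11.1% of all tested genes fell. Kif5b, the heavy chain made in most tissues, was the most abundant kinesin in control libraries at 77.3 ± 6.34 FPKM, and it went from 484, 490.2 and 445 CPM to 399, 417 and 329 CPM. No knockdown library reached the lowest control, and the log2 fold change was -0.32 (standard error 0.0601, adjusted p = 0.00941). Kif5c, known mainly from neurons, was at 78.2, 98.3 and 81.9 CPM in the controls and 65.8, 78.2 and 61.4 CPM in the knockdown, lower in every pair though knockdown library 2 met control library 1 (log2 fold change -0.33, adjusted p = 0.00826). Without pair 2 both calls ended, at -0.36 for Kif5b and -0.33 for Kif5c.

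Kif5a, the neuronal heavy chain, had the largest change of the 36 tested members but at a trace level, with 2.04, 1.63 and 1.34 CPM in the controls and 0.781, 0.590 and 0.363 CPM in the knockdown. In counts these were 36, 29 and 25 reads against 15, 11 and 7. It fell 2.90-fold (log2 fold change -1.54, standard error 0.355, adjusted p = 0.0186), a call that ended without pair 1 (-1.63) or pair 2 (-1.58) and in DESeq2 with the block (-1.57, adjusted p = 0.0692). Beside it, the neural and glial markers summed to 2.28 to 2.43 FPKM in knockdown and 3.51 to 4.75 FPKM in control libraries over 7 genes. Of that list 4 genes could be tested and none passed, with Elavl3 at an adjusted p of 0.0506, and the part of such cells in the Kif5a value was not tested.

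The kinesin-3 motors carry vesicles and organelles at high speed. Of the 6 tested, 3 fell, where 11.1% of all tested genes fell. Of these 3, only Kif13b kept its call in every fit with the block. Kif13b, which moves the scaffold protein Dlg1 and its cargo, was at 22.2, 24.1 and 27.6 CPM in the controls and 13.4, 14.97 and 19.8 CPM in the knockdown. The groups were well apart in each pair, with log2 ratios of -0.72, -0.69 and -0.48, and Kif13b fell 1.54-fold (log2 fold change -0.63, adjusted p = 0.00410), in each of the 8 other fits with the block as well. Kif1b, a carrier of mitochondria and synaptic vesicle precursors, was at 201, 194 and 227 CPM and 179, 177 and 178 CPM, a small fall of log2 fold change -0.22 (adjusted p = 0.0354). The Kif1b call ended in 5 of the 8 other fits with the block, namely without pair 1 (-0.24) and pair 2 (-0.26), in DESeq2 with the block (-0.23), under total count scaling (-0.11) and after the length correction (-0.05). Kif1a, the neuronal relative, stood at 3.85 ± 1.81 CPM in the controls and 2.17 ± 1.37 CPM in the knockdown (SD, n = 3), with overlapping groups but a fall in every pair, of -0.89, -0.66 and -1.23 on the log2 scale (adjusted p = 0.0313). That call ended without pair 1 (-0.88), without pair 2 (-1.04) and in DESeq2 with the block (-0.91).

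The remaining kinesin-3 motors did not pass. Kif1c, a carrier of integrins and vesicles and the kinesin next to Kif5b in abundance at 73.3 ± 6.46 FPKM in control libraries, was at 419.9, 408 and 377 CPM there and 354, 370.0 and 354 CPM in the knockdown. Although the groups did not overlap, the log2 fold change was only -0.16 (95% interval -0.29 to -0.03, adjusted p = 0.0767). Kif13a, a motor of recycling endosomes, had a log2 fold change of -0.20 (adjusted p = 0.0727), and Kif16b, of early endosomes, one of -0.15 (adjusted p = 0.249). Without pair 3, Kif1c passed at -0.20.

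Kif26b, an atypical kinesin without motor activity that acts in Wnt5a and Ror signalling, gave the smallest adjusted p of all members. It was at 160.2, 146 and 196 CPM in the controls and 94.6, 94.9 and 139 CPM in the knockdown. Number 3 was the highest library of each group, the groups did not overlap, and Kif26b fell 1.54-fold (log2 fold change -0.63, standard error 0.0636, adjusted p = 0.00164), also in each of the 8 other fits with the block. Its gene model is long, at 14768 bases, beside a median of 3159 over tested genes, and with the length correction the log2 fold change was -0.45. Beside it, 5 of 6 fibroblast markers fell, where 11.1% of all tested genes fell. The sum of the 6 was 2553 to 4066 FPKM in knockdown and 3171 to 6004 FPKM in control libraries, also highest at number 3 in each group. The calls of Lum and Pdgfra held in each of the 8 other fits with the block. That of Col1a1 ended in DESeq2 with the block (-0.47) and without pair 2 (-0.57). The Dcn call ended without pair 1 (-0.22), without pair 2 (-0.32) and under total count scaling (-0.23). That of Dpt ended in DESeq2 with the block (-0.61) and without any 1 pair. The part of such cells in the Kif26b value was not tested. Kif26a, its relative, was at 2.47 ± 0.478 CPM in the controls and 2.22 ± 0.290 CPM in the knockdown and did not pass (adjusted p = 0.714).

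Kif21b, a kinesin-4 motor that restrains microtubule growth, was the only other kinesin that rose. It was at 13.2, 17.8 and 27.7 CPM in the controls and 29.4, 21.7 and 33.1 CPM in the knockdown, so the groups overlapped, with control library 3 above knockdown library 2. The pair ratios were 1.16, 0.28 and 0.26 on the log2 scale, most of it from pair 1, and the call (log2 fold change 0.55, adjusted p = 0.0429) ended without pair 1 (0.27) and without pair 2 (0.69). Its relative Kif21a had a log2 fold change of 0.21 and did not pass (adjusted p = 0.251). Kif7, a regulator of Hedgehog signalling at the tip of the cilium, was at 21.3 ± 4.10 CPM in the controls and 20.3 ± 1.79 CPM in the knockdown (adjusted p = 0.723).

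Kinesin-2, the motor of intraflagellar transport that builds the cilium, had no member that passed. Kif3a stood at 24.4, 27.4 and 30.04 CPM in the controls and 23.9, 30.96 and 25.3 CPM in the knockdown, with no common direction over the pairs and a 95% interval of -0.25 to 0.18 for the log2 fold change. Kif3b, its partner in the heterotrimer, had a log2 fold change of -0.13 (95% interval -0.29 to 0.03), and Kif3c one of -0.076 (95% interval -0.24 to 0.09). Without pair 3, Kif3b passed at -0.19. Under total count scaling with the block the sign turned for Kif3a (0.076), Kif3c (0.031), Kif7 (0.049) and Kif2a (0.092). Kif17 was at 0.901 ± 0.715 and 1.31 ± 0.562 CPM, too low for a narrow interval (-0.57 to 1.85). Kif2a, a depolymerase and close relative of Kif2c, is among the other kinesins only because the selection rule does not list it as mitotic. It was at 56.8, 60.5 and 65.5 CPM in the controls and 57.5, 61.8 and 61.4 CPM in the knockdown. Its log2 fold change of -0.016 had a 95% interval of -0.16 to 0.13, which lies below that of Kif2c, 0.25 to 0.76, though the difference between these genes was not tested. Kif6, Kif9, Kif19, Kif24 and Kif27, mostly genes of cilia and all under 10 CPM, did not pass, with log2 fold changes from -0.72 for Kif9 to 0.12 for Kif24.

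**Figure D3:**
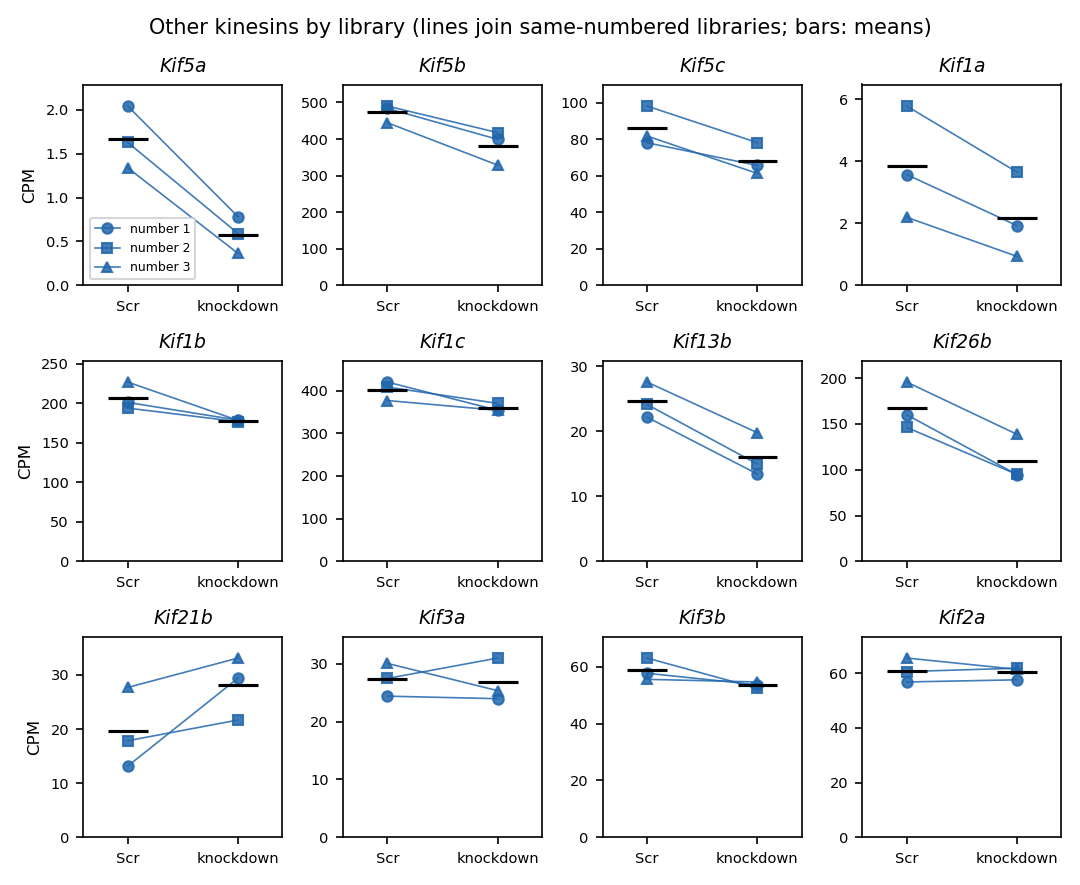
Level of 12 of the other kinesins in CPM after TMM scaling (vertical axes from 0), by library, with lines between same-numbered libraries and black bars for group means over 3 libraries. The kinesin-1 genes, Kif1a, Kif1b, Kif1c, Kif3b, Kif13b and Kif26b fall in every pair, Kif21b rises in every pair, and Kif3a and Kif2a have no common direction.

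Set against each other within a library, the kinesin sets changed their share. Mitotic kinesins made up 25.1%, 27.8% and 25.2% of the summed FPKM of all 40 genes in control libraries 1 to 3 and 36.9%, 35.2% and 34.0% in knockdown libraries 1 to 3. This share does not depend on how libraries are scaled to each other, and its lowest knockdown value lay above its highest control value. Kif5b took 20.9% of that sum on average in control and 17.1% in knockdown libraries, while Kif20a took 6.65% and 8.56%. In the order of mean FPKM, Kif5b and Kif1c, which differed by less than their SD in the controls, exchanged places. In the knockdown they were at 67.1 ± 8.16 and 70.5 ± 1.05 FPKM (SD, n = 3). Kif23 moved from place 8 to 5, and Kif13b from place 17 to 23. Control places 7 to 10 were close, with Kif2a at 13.8 ± 0.532, Kif23 at 13.6 ± 1.57, Kif1b at 13.6 ± 0.768 and Kif3c at 13.3 ± 0.656 FPKM. The order there is therefore loose.

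**Figure D4:**
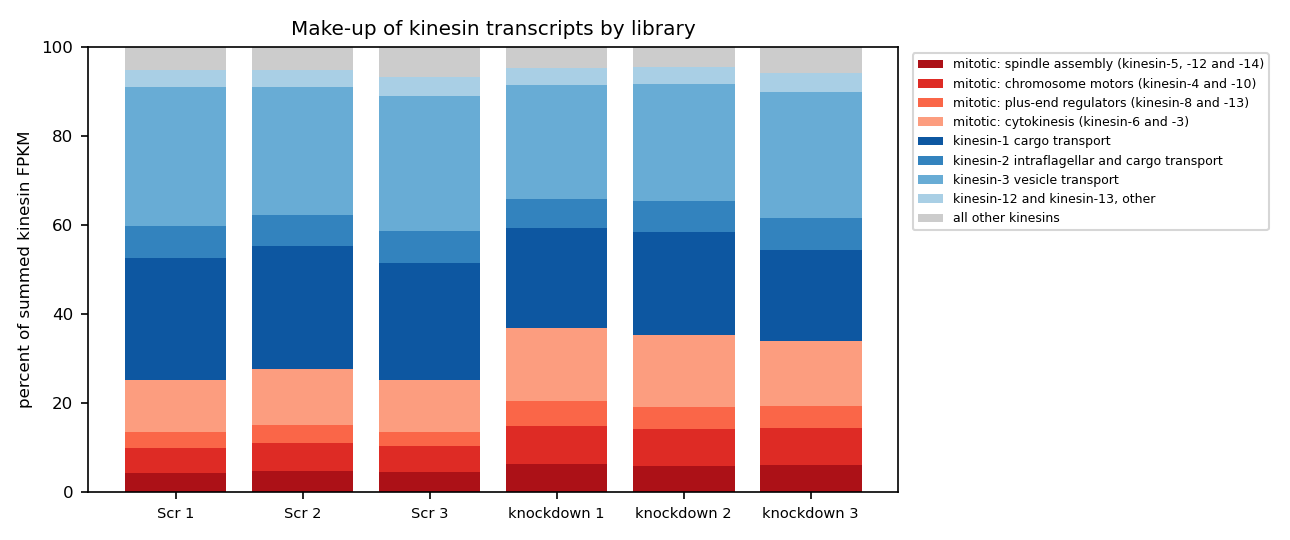
Percent of the summed FPKM of all 40 kinesin genes that each kinesin family took, by library. The 4 red segments are the mitotic kinesins by role and the blue and grey ones the other kinesins. The red part reaches 25.1% to 27.8% in the Scr control libraries and 34.0% to 36.9% in the knockdown libraries.

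The proteins that work with these motors were read from lists of genes around them. Of 30 spindle and midzone partners of the mitotic kinesins, 26 rose, 0 fell and 4 did not pass, beside 10.5% of all tested genes higher and 11.1% lower. The median log2 fold change was 0.47. The calls of Anln, Aurka, Incenp, Nuf2, Sgo1 and Ska1 ended without pair 1, without pair 2 and in DESeq2 with the block. That of Ska1 also ended after the length correction. Those of Plk1, Ndc80, Nusap1 and Sgo2 ended without pair 1 and without pair 2. The Ska3 call ended without pair 1, and those of Aurkb, Bub1b and Spag5 without pair 2. Those of Birc5, Knstrn and Cep55 held in every fit with the block. Birc5, the survivin subunit of the complex that Kif20a carries, rose from 13.3 ± 1.90 to 21.3 ± 4.32 CPM (SD, n = 3), Knstrn, a kinetochore and spindle protein, from 16.97 ± 0.476 to 26.6 ± 1.75 CPM, and Cep55, an abscission factor, from 18.3 ± 3.01 to 28.1 ± 4.34 CPM. Ccna2, Mybl2 and Ccnb1 had the largest changes among the proliferation genes, with log2 fold changes of 0.74, 0.59 and 0.49. The lists were chosen with earlier results of these data known and give no independent support.

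A further list of 17 genes held light chains, cargo adaptors and the kinesins without a number Kifc2, Kifc3 and Cenpe. Among them, 1 rose, Kifc3, 2 fell and 14 did not pass, and the median log2 fold change was -0.04. The share that rose was below the 10.5% of all tested genes, and the share that fell was near the 11.1%. Kifc3, a minus-end kinesin of cell junctions, rose from 47.8 ± 3.56 to 64.1 ± 2.10 CPM (SD, n = 3). The 2 that fell were the cargo adaptors Trak2 and Mapk8ip3, with log2 fold changes of -0.26 and -0.21. Both of those calls ended without pair 1 (-0.18 and -0.17) and without pair 2 (-0.30 and -0.21), under total count scaling (-0.15 and -0.10) and after the length correction (-0.20 and -0.15), and that of Mapk8ip3 also in DESeq2 with the block (-0.22). Klc1, the kinesin-1 light chain, was at 141 ± 9.91 against 153 ± 18.5 CPM and did not pass (adjusted p = 0.185), and Kifap3, the third subunit of kinesin-2, at 64.5 ± 6.26 against 69.02 ± 7.77 CPM (adjusted p = 0.414).

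Cytoplasmic dynein, which walks the opposite way, had 1 rise, 1 fall and 20 genes that did not pass among 22 tested, with a median of 0.02. Both shares were below those of all tested genes, of which 10.5% rose and 11.1% fell. The fall was in the motor subunit itself. Dync1h1, the dynein heavy chain, was at 779.7, 771 and 835 CPM in the controls and 493, 521 and 471 CPM in the knockdown, far apart in every pair. It fell 1.61-fold (log2 fold change -0.69, standard error 0.0643, adjusted p = 0.00125), also in each of the 8 other fits with the block. With the length correction its log2 fold change was -0.52. Actr10, a dynactin subunit, had a log2 fold change of 0.23, a call that ended without pair 1 (0.26) and pair 2 (0.20), in DESeq2 with the block (0.22) and after the length correction (0.17). Among 13 tested tubulins 2 rose and 0 fell, Tubb4b at 0.27 and Tuba1b at 0.18, and both calls ended without pair 1 (0.31 and 0.20), without pair 2 (0.34 and 0.18) and with the length correction (0.19 and 0.10). That of Tuba1b also ended in DESeq2 and with DESeq2 size factors in edgeR, both with the block (0.17 in each). The share of tubulins that rose was near the 10.5% of all tested genes. Of 20 intraflagellar transport genes 3 fell and 0 rose, Wdr19 at -0.50, Dync2h1 at -0.38 and Ift140 at -0.28, a share near the 11.1% of all tested genes that fell. The Wdr19 call ended without pair 2 (-0.39), that of Dync2h1 without pair 1 (-0.37), under total count scaling (-0.27) and after the length correction (-0.22), and that of Ift140 without pair 1 (-0.24) and pair 2 (-0.32), in DESeq2 with the block (-0.29), under total count scaling (-0.17) and after the length correction (-0.19).

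**Figure D5:**
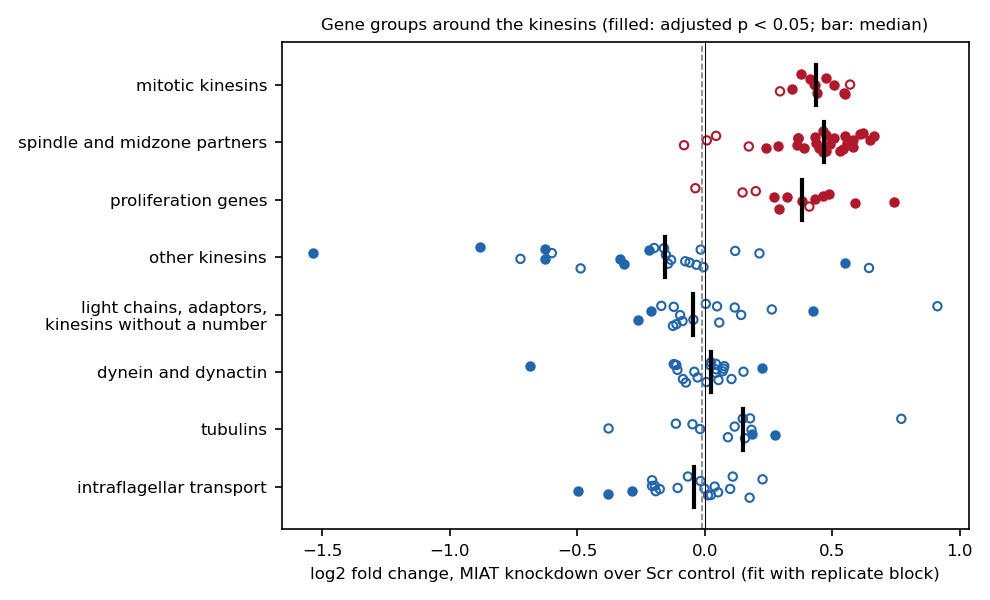
Log2 fold change, MIAT knockdown over Scr control, from the fit with the replicate block, of tested genes in the kinesin sets and the lists around them. Each point is a gene, filled where the adjusted p was under 0.05, black bars are medians, and the dashed line is the median of all tested genes. The medians of the mitotic kinesins, their partners and the proliferation genes are 0.44, 0.47 and 0.38, and that of the other kinesins is -0.16.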

How the data were processed

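RNA-seq of 6 libraries was used as deposited. The authors deposited whole-number counts per gene and FPKM per gene, and the FPKM values above 0 equal count over gene length and total count in 100% of cases. Aligner, counter, strand setting and build: not given in the sources used here. Low-count genes were removed with filterByExpr, and counts were TMM-scaled and tested with edgeR 4.0.16 in R 4.3.3 (quasi-likelihood test, Benjamini-Hochberg adjustment over all tested genes). DESeq2 1.42.0 and limma 3.58.1 were alternatives, and the scripts were tested on simulated data. Same-numbered libraries deviated together from their group means (r = 0.68, 0.52 and 0.58 across genes, against -0.56 to -0.05 for other pairings), and the titles' numbers were taken as pairs. Deviations within a group sum to 0 for each gene, which pushes other pairings below 0 once the same-numbered ones are positive. The values of other pairings are therefore no separate evidence, and the check used the same data as the calls. The planned design had no block, with the block as its alternative. Residual degrees of freedom were 4 without and 2 with the block. The fits without a pair kept the block on fewer libraries and had fewer still. Calls that held, ended or passed in those fits therefore rest on little information. Precision is limited by 3 libraries per group. No protein sequences were used here. Named genes were all mitotic kinesins, and of the other kinesins those past the threshold, the 5 most abundant, the 5 with the largest change, and Kif5b, Kif3a and Kif1b. Of each further list up to 3 genes were named by the size of their change, or by abundance where none passed. Other members and the genes that overlap them were added to complete the account. So were Kifap3, Cenpe, Cd14 and Cd68, and called genes of the proliferation, fibroblast and spindle partner lists. The members and lists were chosen with earlier results of these data known.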

Additional observations from a re-analysis of the deposited data

How the results depend on the processing

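Without the block, edgeR called 0 genes in either direction, as did its other scalings and filters, limma and each fit without a single library, with 2576 genes at an unadjusted p under 0.05. With the replicate block, 1412 genes were higher and 1486 lower, with 10 mitotic kinesins and 1 other kinesin higher and 7 others lower. DESeq2 gave 367 and 332 genes without the block, with 3 mitotic kinesins higher and 2 others lower, and with the block 661 and 929, with 10, 1 and 4 kinesins in the same order. The other fits with the block gave 1355 and 1606 genes with DESeq2 size factors (10, 1 and 7 kinesins), 2822 and 819 with total count scaling (12, 1 and 6), 1582 and 1546 without the low-count filter (11, 1 and 7), and 1204 and 1408 with a loess correction for gene length, an alternative chosen after seeing the data (11, 1 and 6). The block without pair 1 gave 530 and 665 genes (5, 0 and 4 kinesins), without pair 2 gave 348 and 388 (3, 0 and 2) and without pair 3 gave 1924 and 2200 (12, 1 and 9). No mitotic kinesin was called lower in any setting run. The median of the other kinesins, -0.16, was -0.041 with limma on log2(FPKM + 1), -0.048 on log2(FPKM + 0.1), -0.048 with total count scaling, -0.048 with that scaling and the block, -0.077 with the length correction, and -0.22 to -0.14 without a single library. The causes were not tested.

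Direction changed in 41 values of 7 kinesins, none of which passed. With limma on log2(FPKM + 1) and log2(FPKM + 0.1), total count scaling, and that scaling with the replicate block, Kif2a was at 0.087, 0.092, 0.092 and 0.092, Kif3a was at 0.061, 0.074, 0.079 and 0.076, Kif3c was at 0.029, 0.031, 0.032 and 0.031, Kif7 was at 0.042, 0.052, 0.041 and 0.049, and Kif27 at 0.019, 0.096, 0.033 and 0.10. Kif27 was also at 0.0054 in DESeq2 with the block, 0.043 with limma-voom, 0.0050 without the filter, 0.031 with the length correction, 0.31 without pair 1 and 0.035 without pair 2. Kif3a was at 0.039 with the length correction, and without pair 3 Kif2a was at 0.022, Kif3a at 0.076 and Kif7 at 0.064. Without a single library the values ran from -1.37 to 0.064 for Kif19, -0.10 to 0.33 for Kif24, -0.33 to 0.35 for Kif27, -0.069 to 0.037 for Kif2a, -0.15 to 0.048 for Kif3a and -0.22 to 0.056 for Kif7. Depth limits the 4 untested kinesins and the trace-level Kif5a, Kif17 and Kif19.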
